A study of Caenorhabditis elegans with 30 samples.

Results

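The worms compared were 2 Caenorhabditis elegans dumpy mutants, dpy-9(e12) and dpy-10(e128), which each lack a working collagen of the annular furrows of the cuticle, and osm-8(n1518) mutants, which carry a lesion in a secreted mucin-like protein. Members were chosen by title alone: the 3 dpy-9 and 3 dpy-10 arrays against the 3 osm-8 arrays, 9 of the 30 arrays in the series, over all 22548 probe sets that are not controls. The osm-8 mutant is one of the osmotic stress resistant (osr) strains, a class that also holds both dpy mutants. All worms were grown at 20 °C on standard plates with 51 mM NaCl and were collected as young adults on a particle sorter whose gate left out L4 and younger animals. The methods describe hypochlorite synchronization for the wild type and do not state it for the mutants. The N2 wild type on the same plates (3 arrays) is given beside the mutants for orientation, and osm-7 and osm-11 arrays entered the fit only. Each strain stands for 1 allele, and RNA came from whole worms, so a change in 1 tissue is diluted by the others. The methods describe individual replicate preparations for each time point, of which those with the best RNA were hybridised, without naming separate cultures for the mutants, so p-values measure the spread between such preparations.

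The cuticle of C. elegans is an extracellular matrix of crosslinked collagens that the epidermis (hypodermis) secretes anew at each molt. Circumferential bands of the collagens DPY-2, DPY-3, DPY-7, DPY-8, DPY-9 and DPY-10 line the furrows between annuli, and their loss gives short, fat worms that withstand high salt. Mutants of osm-8 withstand it too, without the dumpy shape, so the comparison asks where worms without furrows differ from worms with another lesion of the epidermal surface.

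Levels are log2 of the deposited intensities, and differences are log2 differences of dpy mutants minus osm-8, the dpy value being the mean of the 2 strain means. A probe set was called higher or lower at an adjusted p of at most 0.01 (limma, Benjamini-Hochberg over all probe sets) with a 3-fold or larger change, and "rose" and "fell" are used of called probe sets only. A group mean under 5 is named near background, and a fold to or from it is given as "at least". Levels of at least 5 were reached by 41.4% to 42.4% of probe sets on the dpy arrays, 40.4% to 41.1% on the osm-8 arrays and 38.3% to 39.3% on the N2 arrays, and arrays of 1 group correlated with r of at least 0.990 across probe sets. Marker genes were fixed for 11 cell classes, to show which tissues the RNA came from. All 16 oocyte and germ line markers and all 7 body wall muscle markers were above background in both dpy strains and osm-8. Near it in the dpy mutants and osm-8 were 2 of 8 hypodermal markers (dpy-7 and che-14), 1 of 9 intestinal markers (elt-2, though at 5.17 in dpy-10 alone), 6 of 7 early embryo markers and 6 of 14 sperm markers (spe-9, spe-12, spe-38, spe-41, fer-1 and ssp-19). So were the neuronal markers rab-3, snt-1, unc-31 and rgef-1 and the pharyngeal markers myo-2, ceh-22 and pqn-75. The same held for lim-7, ceh-18 and fkh-6 (gonad sheath and spermatheca), exc-4 (seam and excretory) and unc-122 (coelomocyte). The summed intensity of the sperm markers was 4895 to 6005 on the dpy arrays, 2586 to 3202 on the osm-8 arrays and 971 to 1095 on the N2 arrays. That of the 16 oocyte and germ line markers was 21850 to 30740, 45930 to 49350 and 81910 to 89040 in the same order, and that of 7 body wall muscle markers was 32610 to 36690, 22790 to 24610 and 11250 to 12990. The 9 intestinal markers summed to 64440 to 93210 on the dpy arrays, below 96980 to 105100 on the osm-8 arrays. N2 lay at 82070 to 89700. Bright genes weigh most in such a sum, and here they include the yolk genes vit-2 and vit-6. The median difference of these 9 markers was 0.14, with 1 called higher and none lower. The hypodermal sums overlapped (4810 to 6000 in dpy, 4649 to 5422 in osm-8). Of the 8 hypodermal markers 3 were called higher and none lower, at a median difference of -0.20. Of these 3, che-14 was near background on both sides (4.23 in the dpy mutants and 2.53 in osm-8). In whole worms, fewer cells of a type and less RNA per cell cannot be told apart, and the part of these shifts in the differences below was not tested.

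In the dpy mutants 812 probe sets were called higher than in osm-8 (3.6% of those tested) and 205 lower (0.909%). Of these, 549 and 154 passed in both strains taken singly. With 1 probe set per gene, 678 of 17118 genes rose (3.96%) and 167 fell (0.976%), the shares to set beside the list counts below. The rises included some cuticle collagens, hedgehog-related proteins and detoxification enzymes, and the falls included an intestinal lysozyme, a lysosomal lipase, single collagens and oocyte genes. Over the 812 the median level was 6.51 in the dpy mutants, 4.29 in osm-8 and 2.88 in N2, and over the 205 it was 4.84, 7.10 and 7.89. The osm-8 mean was near background for 509 of the 812, and 162 of these stayed under 5 in the dpy mutants too. The dpy mean was near background for 112 of the 205 that fell. The 6 dpy arrays and the 3 osm-8 arrays did not overlap in 766 of the 812 and 204 of the 205, against 35.2% of all probe sets. Taken singly, dpy-9 had 825 higher and 210 lower (4.59% called) and dpy-10 had 870 and 252 (4.98%), both set against the same osm-8 arrays. The split depended on the scale: with each array centred on its own median the counts were 547 higher and 328 lower, so that 62.5% of calls were rises in place of 79.8%, since centring moved every difference by -0.26 in the median. Adding 32 to each intensity before taking log2, which shrinks the changes of dim probe sets, left 241 and 77.

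**Figure D1:**
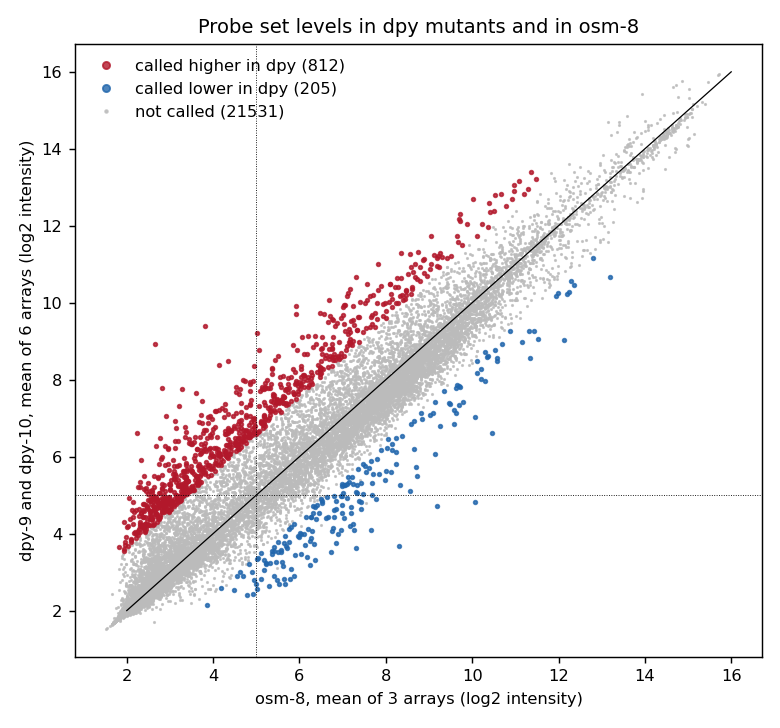
Mean log2 intensity of each of the 22548 probe sets in the 6 dpy-9 and dpy-10 arrays (vertical axis) against the 3 osm-8 arrays (horizontal axis). Red points are the 812 called higher and blue points the 205 called lower in dpy mutants, the solid line is equality and dotted lines mark a log2 level of 5, below which 509 of the 812 lay in osm-8.

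No gene of the furrows themselves was called. Of 5 furrow collagens with a probe set of their own (dpy-10 has none here), none was called. The median difference was -0.35, against -0.04 over all 17118 genes with a probe set. With arrays centred it was -0.61, against -0.29 over all probe sets. The mutated dpy-9 was at 4.82, 4.83 and 5.61 in dpy-9, 5.15, 4.83 and 4.82 in dpy-10, against 6.71, 5.36 and 5.68 in osm-8, a difference of -0.91 (95% interval -1.497 to -0.32, limma adjusted p = 0.0224), so its level was close to 5 in both dpy strains. The others differed by -0.42 (dpy-2, 95% interval -1.15 to 0.31), 0.70 (dpy-3, 0.25 to 1.15), -0.35 (dpy-7, -0.80 to 0.10) and -0.16 (dpy-8, -0.71 to 0.40). All 5 lay between 3.47 and 7.33 on the 9 mutant arrays, and the list median was 1.40 above N2 in the dpy mutants and 1.76 above N2 in osm-8.

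The osm-8 gene was near background everywhere, at 2.86, 3.35 and 4.36 in dpy-9, 3.86, 4.49 and 4.08 in dpy-10, against 3.37, 2.55 and 2.32 in osm-8, so its probe set does not check the osm-8 label. By contrast osm-7, a secreted ligand-like protein of the same osr class, rose at least 5.74-fold, at 8.26, 7.95 and 7.32 in dpy-9, 7.05, 6.80 and 6.84 in dpy-10, against 4.72, 4.55 and 5.29 in osm-8 (N2 at 2.98, 3.26 and 3.32). Its level in osm-8 was near background, and the 6 dpy arrays lay above the 3 osm-8 arrays without overlap. The related osm-11 was not called between the mutants, at 10.77, 10.81 and 10.92 in dpy-9, 10.56, 10.87 and 10.70 in dpy-10, against 10.74, 10.80 and 10.67 in osm-8 (difference 0.03, 95% interval -0.22 to 0.28), while N2 was at 8.64, 8.30 and 8.48. The patched-related gene ptr-23, known as a genetic suppressor of osm-8, rose 3.42-fold (1.77 ± 0.18 SE, limma adjusted p = 3.51e-06), at 9.997, 10.35 and 10.51 in dpy-9, 9.26, 9.05 and 9.56 in dpy-10, against 8.18, 7.98 and 7.89 in osm-8. It passed in dpy-9 alone of the 2 strains, and under median centring its difference of 1.52 missed the 3-fold threshold. Of the 15 measured osr genes and partners listed, osm-7 and ptr-23 were the 2 that rose (13.3%, against 3.96% of all genes) and none fell.

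Cuticle collagens rose in number. Of the col genes with a probe set, 32 rose, 2 fell and 94 were not called, against 3.96% and 0.976% of all 17118 genes, and the list median was 0.44. The 32 rose by 1.65 to 3.41, 27 of them in both strains, and their median level was 11.13 in the dpy mutants, 8.92 in osm-8 and 4.86 in N2. Their levels therefore ran from dpy through osm-8 down to N2, with 6 near background in osm-8 and 16 in N2. The largest rises were in col-113 and col-120. For col-120 the arrays read 11.06, 10.93 and 10.84 in dpy-9, 9.73, 9.60 and 10.04 in dpy-10, against 7.26, 6.99 and 7.29 in osm-8, a 9.1-fold difference (3.19 ± 0.12 SE, limma adjusted p = 2.56e-10), and N2 was at 2.90, 2.64 and 2.85. The dpy-10 arrays stood between the dpy-9 and the osm-8 arrays. A similar picture held for col-60, at 12.24, 12.49 and 12.24 in dpy-9, 11.03, 10.94 and 11.51 in dpy-10, against 9.06, 9.07 and 9.02 in osm-8 (N2 at 4.12, 3.90 and 3.70). For col-113 the 6 dpy arrays lay between 7.31 and 9.09 and the osm-8 arrays between 4.55 and 5.52, and for col-76 between 9.28 and 10.06 and between 6.29 and 6.91. The sperm, oocyte and muscle marker sums given above separated the same arrays, and their part in the collagen difference was not tested.

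Both col genes that fell ran the other way, with N2 nearest to osm-8. One, col-101, was at 5.47, 5.26 and 4.55 in dpy-9, 4.42, 4.45 and 4.19 in dpy-10, against 9.42, 9.14 and 8.98 in osm-8, a 17-fold fall in dpy-9 and one of at least 28.4-fold in dpy-10, and at 11.78, 11.79 and 11.21 in N2. It was thus high in the wild type and under 5 on 4 of the 6 dpy arrays. The other, col-143, was at 9.03, 9.53 and 8.57 in dpy-9, 8.68, 9.27 and 9.10 in dpy-10, against 11.999, 12.22 and 12.16 in osm-8, an 8.55-fold fall (-3.10 ± 0.20 SE, limma adjusted p = 4.07e-08), and 12.17, 11.65 and 11.63 in N2. In 17 further probe sets that each match several col genes, 1 rose and none fell.

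Among 13 collagens known for mutant body shapes, 6 rose (lon-3, dpy-5, rol-8, bli-1, rol-6 and sqt-2) and dpy-17 fell, with a list median of 1.46. These were 46.2% and 7.69% of the list, against 3.96% and 0.976% of all genes. The levels of dpy-5, a collagen whose loss shortens the worm, were 13.61, 13.67 and 13.82 in dpy-9, 13.01, 13.09 and 13.15 in dpy-10, against 11.34, 11.18 and 11.59 in osm-8 and 5.13, 5.65 and 6.11 in N2. Its dpy mean exceeded osm-8 by 2.02 in log2 (4.06-fold), and osm-8 exceeded N2 by 5.74 in log2, a larger step. For lon-3, whose loss lengthens the worm, the arrays read 7.004, 8.08 and 7.13 in dpy-9, 8.94, 9.22 and 8.06 in dpy-10, against 6.43, 5.77 and 5.88 in osm-8, and dpy-10 passed alone where dpy-9 did not. The strut collagen of the adult cuticle bli-1 was at 8.07, 8.65 and 9.22 in dpy-9, 8.98, 9.30 and 8.98 in dpy-10, against 7.02, 7.04 and 7.26 in osm-8 and likewise passed in dpy-10 only. Its second probe set, with a difference of 1.24, was not called. For dpy-17 the levels were 6.59, 6.54 and 6.03 in dpy-9, 6.53, 6.54 and 6.99 in dpy-10, against 8.40, 7.96 and 8.75 in osm-8, a 3.56-fold fall with N2 at 7.49, 8.15 and 7.80. The call of rol-8 (1.77) was lost without dpy-10 replicate 2 (1.56) or osm-8 replicate 2 (1.57). Under median centring the list held 2 rises and 2 falls in place of 6 and 1.

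**Figure D2:**
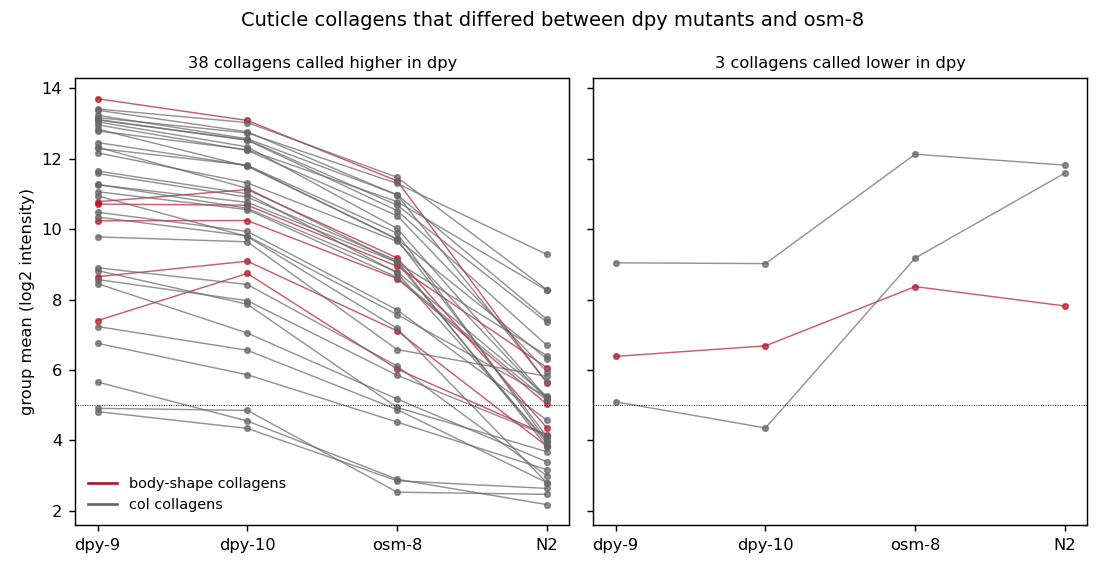
Group means (log2 intensity) of the 38 cuticle collagens called higher (left) and the 3 called lower (right) in dpy mutants against osm-8, each line 1 gene in dpy-9, dpy-10, osm-8 and N2. Lines that slope down from dpy through osm-8 to N2 fill the left panel, while col-101, col-143 and dpy-17 are lowest in the dpy mutants.

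Proteins that build and shed the cuticle held some calls as well, all of them rises, where 3.96% of all genes rose. Of 18 enzymes of collagen synthesis and processing 2 rose (11.1%), bli-5 and mlt-8. The protease inhibitor gene bli-5 was at 7.21, 7.196 and 7.64 in dpy-9, 5.59, 6.65 and 6.29 in dpy-10, against 3.81, 3.14 and 3.11 in osm-8, a rise of at least 10.6-fold from a level near background. The molting gene mlt-8 was at 10.47, 10.25 and 10.72 in dpy-9, 9.94, 9.75 and 10.18 in dpy-10, against 8.55, 7.74 and 8.05 in osm-8, 4.29-fold above osm-8. Differences of 1.23 for mlt-9 and 1.07 for mlt-10 stayed under 3-fold, though a second mlt-9 probe set, at 2.30, was called. Of 26 apical matrix and molting genes, qua-1 and ptr-23 rose (7.69%). Both are counted again in the hedgehog-related and patched-related list below, and ptr-23 was counted among the osr genes above. The cuticlin cut-2 was at 13.73, 13.44 and 13.90 in dpy-9, 12.64, 13.05 and 13.47 in dpy-10, against 12.08, 11.64 and 11.79 in osm-8, and its difference of 1.53 (95% interval 1.1 to 1.97) did not reach 3-fold, but did without dpy-10 replicate 1 (1.64), dpy-9 replicate 2 (1.60) or osm-8 replicate 1 (1.66). Of 33 astacin proteases, a class that processes collagens and opens the old cuticle, nas-38, nas-7 and nas-30 rose (9.09%). The arrays of nas-7 read 7.60, 7.47 and 7.71 in dpy-9, 6.74, 6.05 and 6.62 in dpy-10, against 4.09, 4.15 and 4.52 in osm-8, and osm-8 and N2 (2.54, 2.52 and 2.57) were both near background. The smallest of these calls, nas-30 (1.64), was lost without dpy-10 replicate 2 (1.58), dpy-9 replicate 3 (1.46) or osm-8 replicate 2 (1.39) or 3 (1.57).

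Hedgehog-related and patched-related genes in C. elegans are expressed largely in epidermal cells and are tied to molting and alae. They gave 22 rises and no fall among 82 measured (26.8%, against 3.96% of all genes). The list median was 0.05 (-0.20 with arrays centred, where 17 still rose). The 22 rose by 1.70 to 3.39, 17 in both strains, and 13 were near background in osm-8. They held ligand-like genes of the wrt, grl, grd, hog and qua groups, and patched-like receptors. The warthog gene wrt-4 was at 10.31, 9.94 and 10.26 in dpy-9, 9.58, 9.82 and 10.55 in dpy-10, against 6.56, 6.74 and 6.78 in osm-8, a 10.5-fold difference (3.39 ± 0.17 SE, limma adjusted p = 4.55e-09), with N2 near background at 2.49, 2.54 and 2.51. The ground-like gene grl-22 was at 7.36, 6.96 and 6.57 in dpy-9, 6.12, 5.42 and 6.01 in dpy-10, against 2.997, 3.08 and 3.47 in osm-8, and osm-8 overlapped N2 (2.97, 2.94 and 3.24). Its relative grl-5 spread more in osm-8, at 9.15, 9.80 and 9.71 in dpy-9, 9.18, 10.39 and 9.19 in dpy-10, against 6.69, 5.77 and 7.79 in osm-8. Of the receptors, ptr-1 was at 7.10, 6.60 and 6.54 in dpy-9, 4.83, 6.24 and 6.09 in dpy-10, against 3.13, 3.51 and 2.70 in osm-8, at least 8.69-fold higher, with no overlap between groups. For hog-1 the 6 dpy arrays lay between 5.68 and 7.47 and the osm-8 arrays between 3.99 and 4.69.

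Several of the glutamine and asparagine rich PQN and ABU proteins belong to the cuticle that lines the pharynx. The list gave 14 rises and no fall among 58 (24.1%, against 3.96% of all genes). Its summed intensity was 16480 to 18670 on the dpy-9 arrays and 12860 to 13560 on the dpy-10 arrays. The osm-8 arrays, at 13170 to 13430, overlapped dpy-10, and N2 was at 17890 to 18630. Of the 14 rises, 8 passed in both strains, and 9 were near background in osm-8 and 13 in N2. The largest of these rises was in abu-8, which has 2 probe sets, called at 4.13 (the brighter, counted in the list) and 4.24. The arrays of the second read 9.27, 9.49 and 9.24 in dpy-9, 8.01, 6.24 and 8.02 in dpy-10, against 5.03, 3.57 and 3.80 in osm-8, at least 19-fold. Both probe sets of abu-14 were called too, at 3.06 for the brighter (mean level 7.11 in osm-8 and 5.20 in N2, the 1 of the 14 not near background in N2) and 3.79 for the dimmer. The dimmer read 10.12, 10.95 and 10.82 in dpy-9, 9.16, 7.78 and 9.48 in dpy-10, against 7.10, 5.06 and 5.63 in osm-8, and N2 was at 3.28, 3.18 and 3.21 there. In both genes dpy-10 lay between dpy-9 and osm-8. For pqn-54 (dpy-10 minus dpy-9 -1.74, limma adjusted p = 0.00704) and abu-11 (-1.96, 0.00716) the gap between the 2 strains itself passed. The levels of pqn-54 were 7.72, 8.72 and 8.12 in dpy-9, 6.73, 5.78 and 6.84 in dpy-10, against 3.78, 2.61 and 3.25 in osm-8, so that even the lowest dpy-10 array stood above every osm-8 array. The replicate 2 array of dpy-10 was the lowest of the 6 for abu-6, abu-8, abu-11, abu-14 and pqn-54. These genes share repeats, and whether their probe sets tell them apart fully was not tested. Of 13 pharyngeal genes phat-4 and phat-2 rose (15.4%, against 3.96% of all genes). The phat-4 arrays read 8.40, 8.54 and 9.01 in dpy-9, 8.24, 7.17 and 8.28 in dpy-10, against 5.59, 4.77 and 5.70 in osm-8.

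Genes of osmolyte production and uptake were examined next, since glycerol is the main osmolyte of the worm. Of 18 measured, 4 rose (22.2%, against 3.96% of all genes) and none fell. The list median was 0.58 (2.096 in dpy mutants and 0.94 in osm-8, each over N2). The key gene of glycerol synthesis gpdh-1, a glycerol-3-phosphate dehydrogenase, was at 9.65, 8.97 and 9.47 in dpy-9, 10.30, 10.48 and 11.13 in dpy-10, against 7.53, 7.95 and 7.88 in osm-8 (N2 at 3.16, 3.37 and 3.12). The dpy mean was 4.63-fold above osm-8 (2.21 ± 0.24 SE, limma adjusted p = 4.86e-06), a rise that passed in dpy-10 and stayed under the thresholds in dpy-9, though all 3 dpy-9 arrays were above all osm-8 arrays. Its paralogue gpdh-2 was 2.15-fold higher, under the 3-fold threshold, at 12.06, 11.86 and 11.96 in dpy-9, 11.87, 12.101 and 11.98 in dpy-10, against 10.90, 10.86 and 10.84 in osm-8. The myo-inositol transporter gene hmit-1.1 was at 11.001, 10.49 and 10.68 in dpy-9, 11.37, 11.64 and 11.50 in dpy-10, against 10.34, 10.41 and 10.51 in osm-8 and near background in N2 (2.41, 2.38 and 2.90), so that all 3 mutants stood far above the wild type, and the difference of 0.69 had a 95% interval of 0.32 to 1.07. By contrast hmit-1.2 was at background in osm-8, at 5.92, 6.15 and 5.98 in dpy-9, 3.83, 4.09 and 5.27 in dpy-10, against 2.27, 2.21 and 2.34 in osm-8, at least 7.64-fold higher in the dpy mutants. For hmit-1.3 the difference was 1.38. The trehalase gene tre-5 rose from and stayed mostly under a level of 5 (4.09 to 5.51 on dpy arrays, 2.17 to 2.503 on osm-8 arrays), whereas tre-2 was 2.25-fold lower (-1.17), not called. The alpha-glucosidase-related gene aagr-4 rose 3.26-fold, at 10.22, 10.25 and 10.43 in dpy-9, 9.53, 9.74 and 9.78 in dpy-10, against 8.62, 7.94 and 8.28 in osm-8. That call was lost without osm-8 replicate 2 (1.54) and under median centring (1.45).

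None of 10 aquaporins, the water channels, was called, with differences from -0.19 to 1.40. The largest was aqp-4 (1.40, 95% interval 1.003 to 1.80), which passed without osm-8 replicate 3 (1.61), and aqp-8 was at 8.05, 8.44 and 7.68 in dpy-9, 8.91, 8.66 and 8.94 in dpy-10, against 8.43, 8.80 and 8.67 in osm-8, well above N2 (5.81, 5.54 and 4.83) in all 3 mutants. Of 19 genes of volume and ion regulation, nkb-2, a Na/K-ATPase beta subunit, and catp-4, a cation-pumping ATPase, rose 3.38-fold and 3.03-fold. They were 10.5% of the list, against 3.96% of all genes. The nkb-2 arrays read 7.28, 6.92 and 7.19 in dpy-9, 7.71, 7.76 and 7.46 in dpy-10, against 5.15, 5.73 and 6.02 in osm-8. Its call was lost without osm-8 replicate 1 (1.52), and that of catp-4 was lost without dpy-10 replicate 2 (1.56) or 3 (1.55), dpy-9 replicate 2 (1.54) or osm-8 replicate 1 (1.49).

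**Figure D3:**
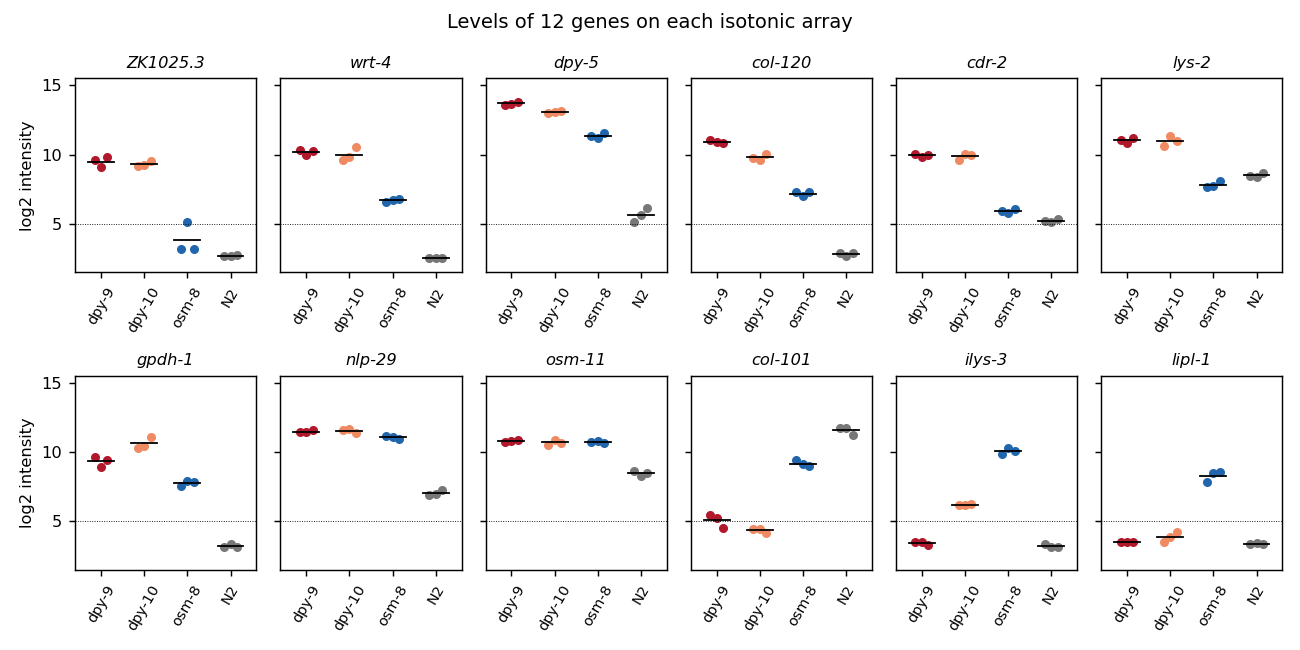
Log2 intensity of 12 genes on each array of dpy-9, dpy-10, osm-8 and N2 (3 each, points), with the group mean as a bar and a dotted line at 5. The genes ZK1025.3, wrt-4, dpy-5, col-120, cdr-2, lys-2 and gpdh-1 are highest in the dpy mutants, nlp-29 and osm-11 lie close together in all 3 mutants, and col-101, ilys-3 and lipl-1 are lowest in the dpy mutants among the mutants.

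Epidermal antimicrobial peptides, which the hypodermis makes on wounding or fungal infection, gave few calls between the dpy mutants and osm-8. None of 10 epidermal nlp genes was called (median 0.38, while the medians over N2 were 3.196 in the dpy mutants and 2.28 in osm-8). The fungus-responsive nlp-29 was at 11.43, 11.46 and 11.60 in dpy-9, 11.60, 11.69 and 11.42 in dpy-10, against 11.18, 11.09 and 10.95 in osm-8 and at 6.91, 7.01 and 7.29 in N2, a difference between mutants of 0.46 (95% interval -0.01 to 0.93). Next to it in the same gene cluster, nlp-31 differed by 0.94 (0.54 to 1.34) and nlp-30 by 1.23 (0.79 to 1.67). The largest was nlp-33, at 10.62, 10.57 and 11.04 in dpy-9, 10.59, 10.49 and 10.37 in dpy-10, against 9.31, 9.01 and 8.92 in osm-8, 2.89-fold and just under the threshold, which it passed without osm-8 replicate 1 (1.65). In the other direction nlp-25 was at 9.31, 8.91 and 8.84 in dpy-9, 7.70, 8.48 and 8.13 in dpy-10, against 9.60, 9.84 and 9.43 in osm-8 (-1.06, limma adjusted p = 0.0136).

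Of the 8 caenacin (cnc) peptides 1 fell (12.5%, against 0.976% of all genes) and none rose. That 1 was cnc-6, at 6.14, 5.88 and 3.90 in dpy-9, 5.997, 5.42 and 4.74 in dpy-10, against 6.79, 7.92 and 6.75 in osm-8, and its call was lost without dpy-10 replicate 2 (-1.82) or 3 (-1.65), dpy-9 replicate 3 (-1.46) or osm-8 replicate 1 (-1.99), 2 (-1.42) or 3 (-2.01). The gene cnc-4 was at 11.92, 11.38 and 11.39 in dpy-9, 11.42, 11.35 and 11.59 in dpy-10, against 9.64, 10.32 and 9.80 in osm-8, and at a difference of 1.58 it lay at the edge of 3-fold, which it passed without dpy-10 replicate 1 (1.59) or 2 (1.61), dpy-9 replicate 2 (1.63) or 3 (1.63) or osm-8 replicate 2 (1.78). Levels of cnc-7 were 8.08, 7.87 and 7.51 in dpy-9, 9.59, 9.74 and 9.52 in dpy-10, against 8.29, 8.98 and 8.20 in osm-8. There the 2 dpy strains fell on either side of osm-8, and dpy-10 exceeded dpy-9 by 1.80 (limma adjusted p = 0.000233). For cnc-2 the difference was 0.44 (95% interval -0.35 to 1.23). Of 13 fungus-induced peptides fip-2 and fipr-2 rose (15.4%, against 3.96% of all genes), by 1.75 and 1.87. The 6 dpy and 3 osm-8 arrays of fipr-2 overlapped (5.38 to 8.12 and 4.18 to 6.02). The call of fip-2 was lost without osm-8 replicate 2 (1.54), and that of fipr-2 without dpy-10 replicate 1 (1.83) or 2 (1.79), dpy-9 replicate 1 (1.74) or 2 (1.77) or osm-8 replicate 1 (1.95) or 2 (1.37). None of 26 genes of epidermal immune signalling was called. The GATA factor gene elt-2 lay between 3.84 and 5.50 on all 9 arrays (difference 0.53, 95% interval 0.08 to 0.98), and elt-3 was at 6.82, 7.06 and 6.47 in dpy-9, 7.17, 7.99 and 7.35 in dpy-10, against 7.29, 7.46 and 7.31 in osm-8 (-0.21, -0.70 to 0.29). The largest differences there were 1.33 for vhp-1, a MAP kinase phosphatase, and 1.22 for the JNK-like kinase kgb-1.

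Immune effectors included the largest fall. The invertebrate-type lysozyme ilys-3 was at 3.49, 3.52 and 3.31 in dpy-9, 6.15, 6.18 and 6.25 in dpy-10, against 9.85, 10.30 and 10.05 in osm-8 (N2 at 3.37, 3.14 and 3.12). It was thus highest in osm-8, 14.7-fold lower in dpy-10 and at least 98.8-fold lower in dpy-9, where it was near background (over both strains -5.25 ± 0.27 SE, limma adjusted p = 5.08e-09), and dpy-10 exceeded dpy-9 by 2.75 (limma adjusted p = 0.000153). Its neighbour ilys-2 split the dpy strains further, at 4.11, 4.24 and 3.96 in dpy-9, 8.60, 8.93 and 8.84 in dpy-10, against 7.74, 7.84 and 8.11 in osm-8 and 2.46, 2.66 and 2.48 in N2. There dpy-10 stood above osm-8 while dpy-9 was near background, so the mean of the 2 strains (-1.45) describes neither, and the strain difference of 4.69 was the largest among the genes named here (limma adjusted p = 1.03e-08). With arrays centred that mean was -1.70 and was called. The lysosomal lipase gene lipl-1 was the 1 of 8 lipl genes that was called (12.5% fell, against 0.976% of all genes). It was at 3.51, 3.51 and 3.48 in dpy-9, 3.51, 3.86 and 4.25 in dpy-10, against 7.85, 8.46 and 8.58 in osm-8, at least 24.4-fold lower. The other groups (3.38, 3.46 and 3.34 in N2) were near background on every array.

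The lysozyme genes lys-2, lys-1 and ilys-4 ran the other way. The levels of lys-2 were 11.09, 10.87 and 11.17 in dpy-9, 10.65, 11.32 and 10.96 in dpy-10, against 7.63, 7.73 and 8.06 in osm-8, 9.19-fold higher in the dpy mutants (3.2 ± 0.25 SE, limma adjusted p = 2.53e-07), with N2 at 8.42, 8.41 and 8.64, between both. For lys-1 the difference was 1.60, at the edge of the threshold, and its call was lost without dpy-10 replicate 2 (1.58) or 3 (1.58) or osm-8 replicate 1 (1.495). The third lysozyme that rose was ilys-4 (1.78), whose call was lost without osm-8 replicate 1 (1.47). In all, 3 of 16 lysozyme genes rose and 1 fell (18.8% and 6.25%, against 3.96% and 0.976% of all genes). The list median was -0.07, with 6 differences above 0 and 10 below, where 33.3% of all genes lay above 0. Among 220 C-type lectins, secreted proteins that bind sugars, 12 rose and 7 fell (5.45% and 3.18%, against 3.96% and 0.976% of all genes). Their list median was -0.03, with 48 differences above 0 and 172 below, where again 33.3% of all genes lay above 0. All 7 that fell passed in both strains and were near background in the dpy mutants. Levels of clec-60 were 3.66, 3.90 and 2.31 in dpy-9, 3.90, 3.99 and 3.94 in dpy-10, against 7.27, 7.31 and 7.35 in osm-8 and 2.30, 2.26 and 2.31 in N2, so osm-8 stood alone. By contrast clec-222 was at 3.89, 3.78 and 4.43 in dpy-9, 4.35, 4.25 and 3.93 in dpy-10, against 7.44, 7.98 and 7.54 in osm-8 and 7.72, 7.33 and 7.23 in N2, where the dpy mutants stood alone. For clec-82 the 6 dpy arrays lay between 3.33 and 4.03 and osm-8 between 6.09 and 7.33. Of the rises, clec-66 was at 8.47, 7.77 and 8.52 in dpy-9, 8.51, 9.23 and 8.59 in dpy-10, against 5.16, 5.55 and 5.56 in osm-8, 8.53-fold higher, and clec-67 rose at least 6.74-fold. None of 18 saposin-like spp genes was called.

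**Figure D4:**
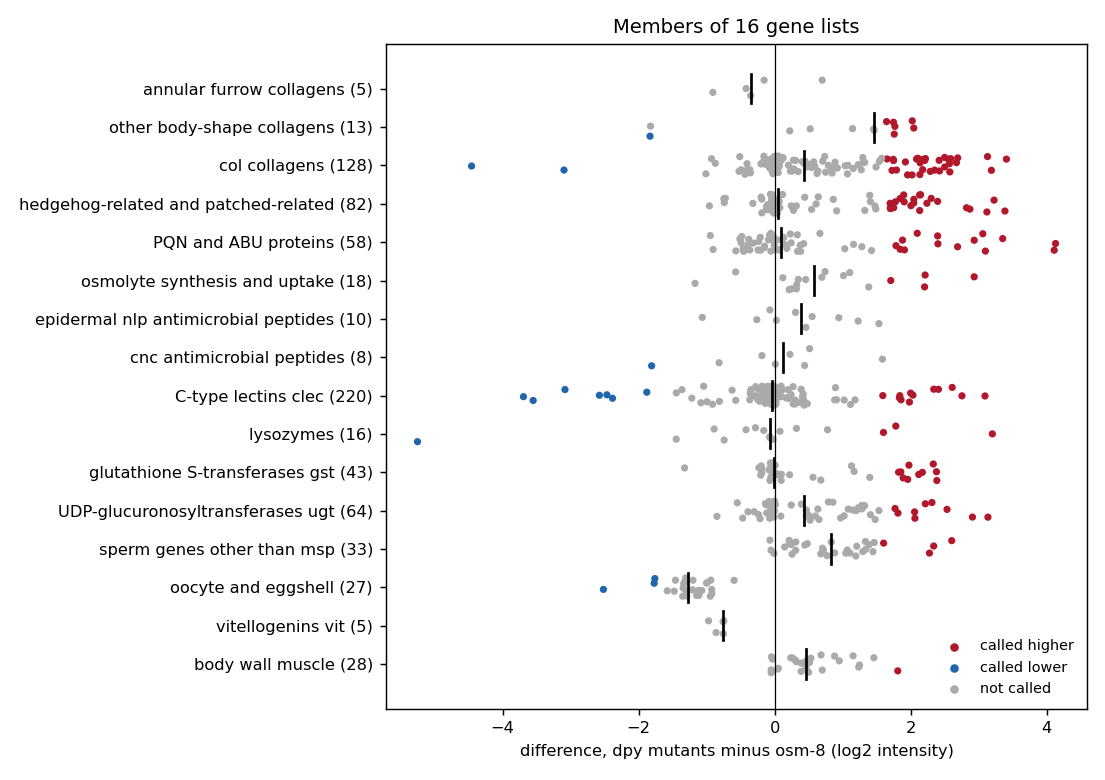
Log2 difference (dpy mutants minus osm-8) of every measured member of 16 gene lists, 1 probe set per gene, with red for called higher, blue for called lower, grey for not called and a black bar at the list median. The col, hedgehog-related, PQN, gst and ugt lists have tails of rises with few or no falls, while all 27 oocyte and eggshell genes lie below 0.

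Some members of 2 families of detoxification enzymes rose, while most were not called. Of 43 glutathione S-transferase genes 10 rose (23.3%, against 3.96% of all genes) and none fell, 8 in both strains, with differences of 1.82 to 2.38 and a list median of -0.02. The best known of them, gst-4, a reporter of the stress factor SKN-1, was at 10.09, 9.88 and 9.74 in dpy-9, 10.96, 11.11 and 11.16 in dpy-10, against 7.99, 8.16 and 8.16 in osm-8, 5.22-fold higher (2.38 ± 0.23 SE, limma adjusted p = 2.14e-06), and at 6.11, 6.001 and 4.65 in N2. The arrays of gst-10 read 10.20, 10.01 and 10.20 in dpy-9, 10.70, 11.02 and 10.79 in dpy-10, against 7.97, 8.22 and 8.14 in osm-8, and N2 (4.79, 3.73 and 2.86) was near background. For gst-13 and gst-38 the differences were 2.17 and 2.33. Of 64 UDP-glucuronosyltransferases, which attach sugars to foreign compounds, 9 rose (14.1%) and none fell, 7 in both strains, with a list median of 0.43. The levels of ugt-62 were 10.70, 10.63 and 10.50 in dpy-9, 10.07, 10.49 and 10.45 in dpy-10, against 7.56, 7.49 and 7.66 in osm-8, 7.5-fold higher, with osm-8 at the N2 level (8.09, 7.68 and 7.81). Likewise ugt-1 was near background in osm-8 and N2 and at 7.21, 7.35 and 6.87 in dpy-9, 7.06, 7.54 and 7.11 in dpy-10, against 3.81, 4.29 and 4.07 in osm-8. For ugt-44 osm-8 spread from 5.37 to 7.24, below the dpy arrays (8.35 to 9.67), and ugt-50 rose by 2.31. Of 73 cytochrome P450 genes 5 rose and 1 fell (6.85% and 1.37%, near the shares over all genes), with a list median of -0.02. The rises, in cyp-37B1, cyp-29A2, cyp-34A8, cyp-14A5 and cyp-32A1, were of 1.65 to 1.97, and 1 of the 5 passed in both strains. The fall, in cyp-13A5, was to near background, at 2.82, 2.95 and 2.80 in dpy-9, 2.86, 2.83 and 2.72 in dpy-10, against 6.53, 5.03 and 5.79 in osm-8.

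The cadmium-responsive gene cdr-2 separated the groups without overlap, at 10.04, 9.82 and 10 in dpy-9, 9.61, 10.07 and 9.94 in dpy-10, against 5.92, 5.77 and 6.05 in osm-8, 16-fold higher (3.999 ± 0.15 SE, limma adjusted p = 4.1e-10), while N2 was at 5.18, 5.13 and 5.35. Its relative cdr-4 was at 8.84, 8.70 and 8.78 in dpy-9, 8.69, 8.96 and 8.82 in dpy-10, against 6.54, 6.70 and 6.998 in osm-8, 4.15-fold higher, and N2 (7.57, 7.48 and 7.34) lay above osm-8. These were the 2 of 10 metal response genes that rose (20.0%, against 3.96% of all genes). In the degradation of tyrosine, gst-42, the maleylacetoacetate isomerase, rose 3.62-fold, at 10.23, 9.87 and 10.30 in dpy-9, 10.43, 10.46 and 10.69 in dpy-10, against 8.66, 8.35 and 8.41 in osm-8. It was the 1 of 6 genes of that list that rose (16.7%, against 3.96% of all genes), and hpd-1, a dioxygenase upstream of it, differed by 0.71. Of 20 SKN-1 pathway and redox genes gst-4 and gst-10 were the 2 that rose, and none of 5 flavin monooxygenases was called.

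Chaperone genes gave few calls. Of 16 heat shock and cytosolic chaperone genes 1 fell (6.25%, against 0.976% of all genes) and none rose. The 1 that fell was hsp-12.3, a small heat shock protein, at 3.67, 3.19 and 3.27 in dpy-9, 4.03, 4.17 and 4.04 in dpy-10, against 6.40, 6.06 and 6.52 in osm-8. The inducible hsp-16.2 spread so widely in osm-8 (3.39, 6.40 and 6.66) that its difference of -2.38 was not called (limma adjusted p = 0.0687). None of 19 genes of the endoplasmic reticulum stress response was called, and hsp-4, the BiP homologue, was at 11.47, 11.60 and 11.28 in dpy-9, 11.62, 11.66 and 11.54 in dpy-10, against 11.30, 11.44 and 11.51 in osm-8 (0.11, 95% interval -0.11 to 0.34, and -0.14 with arrays centred). In lipid metabolism, none of 7 fatty acid desaturases was called. The delta-6 desaturase gene fat-3 was at 9.29, 9.004 and 9.46 in dpy-9, 9.67, 9.75 and 9.67 in dpy-10, against 10.995, 10.90 and 10.79 in osm-8, below osm-8 by 2.67-fold, and fat-7 differed by -0.16. Under median centring fat-3 was called (-1.67). Of 17 fatty acid and lipid binding genes far-8 rose (1.74) and far-7 fell (-1.85), each called in dpy-9 alone of the strains. Each was 5.88% of the list, against 3.96% of all genes that rose and 0.976% that fell.

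Oocyte and germ line genes were lower, and sperm genes higher, in the dpy mutants than in osm-8, which itself differed from N2. All 27 oocyte and eggshell genes had differences below 0 (-2.52 to -0.60, median -1.28), where 33.3% of all 17118 genes lay above 0. Of the 27, cav-1, lin-41 and oma-2 were called (11.1%, against 0.976% of all genes), and 9 were under median centring. The caveolin gene cav-1 was at 5.90, 6.47 and 5.73 in dpy-9, 4.34, 5.78 and 5.45 in dpy-10, against 8.06, 7.72 and 8.60 in osm-8 and 9.04, 9.44 and 9.83 in N2. For oma-2, needed for oocyte maturation, the arrays read 10.83, 10.96 and 10.49 in dpy-9, 9.82, 9.36 and 9.59 in dpy-10, against 11.81, 11.98 and 12.003 in osm-8 and 12.83, 12.88 and 12.70 in N2, in steps from dpy-10 up to N2. The second oma-2 probe set (-1.56) was not called. The oocyte regulator lin-41 and oma-2 were called in dpy-10 alone of the strains, and egg-3, an eggshell gene, differed by -1.46 without a call. With arrays centred egg-3 was called (-1.71). Of 30 germ line and meiosis genes 1 fell (3.33%, against 0.976% of all genes). This was nos-2 (-1.64), a call lost without dpy-10 replicate 3 (-1.52), dpy-9 replicate 3 (-1.56) or osm-8 replicate 2 (-1.48). None of 30 DNA replication and mitosis genes was called, at a median of -0.70, with -1.34 for the mitotic cyclin cyb-3 and -1.03 for the ribonucleotide reductase subunit rnr-2. Median centring gave a call for cyb-3 (-1.59). The P granule gene meg-1, of the germ line founder cells, was at 7.40, 8.01 and 6.78 in dpy-9, 7.26, 6.30 and 7.07 in dpy-10, against 9.65, 9.62 and 9.64 in osm-8, a 5.65-fold fall.

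None of 5 vitellogenins, the yolk proteins that the intestine makes for oocytes, was called, at differences of -0.97 to -0.75. The levels of vit-2 were 13.11, 13.53 and 12.78 in dpy-9, 13.94, 13.93 and 13.61 in dpy-10, against 14.29, 14.59 and 14.49 in osm-8, below all osm-8 arrays on all 6, and the dpy-9 arrays lay below the dpy-10 arrays. For vit-6 the difference was -0.86 (95% interval -1.1 to -0.62). Of 33 sperm genes other than msp genes, 4 rose and none fell, where 3.96% of all genes rose. The 4 were spe-4, spe-11, spe-26 and spe-15. The list median was 0.83, with 30 differences above 0 and 3 below, where 33.3% of all genes lay above 0. The levels of spe-11, which sperm supply to the egg, were 8.03, 8.40 and 7.65 in dpy-9, 7.56, 8.11 and 7.61 in dpy-10, against 4.79, 5.65 and 6.22 in osm-8, and N2 was near background at 3.18, 2.96 and 3.26. For spe-4 they were 6.53, 7.17 and 6.96 in dpy-9, 6.64, 7.47 and 7.57 in dpy-10, against 4.395, 4.03 and 4.93 in osm-8, at least 6.08-fold higher, and spe-26 rose from near background by 2.28. The call of spe-15 (1.60) was lost without dpy-10 replicate 1 (1.55), dpy-9 replicate 3 (1.56) or osm-8 replicate 1 (1.42). None of 23 major sperm protein genes was called, at differences of 0.303 to 1.12, and the list median stood 4.43 above N2 in the dpy mutants and 3.69 above it in osm-8. In msp-50 the arrays read 12.99, 12.87 and 12.51 in dpy-9, 12.15, 12.68 and 12.56 in dpy-10, against 11.50, 11.50 and 11.52 in osm-8, each dpy array lying above each osm-8 array, and gsp-4, a sperm phosphatase, differed by 1.46. None of the 7 probe sets matching several msp genes was called.

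**Figure D5:**
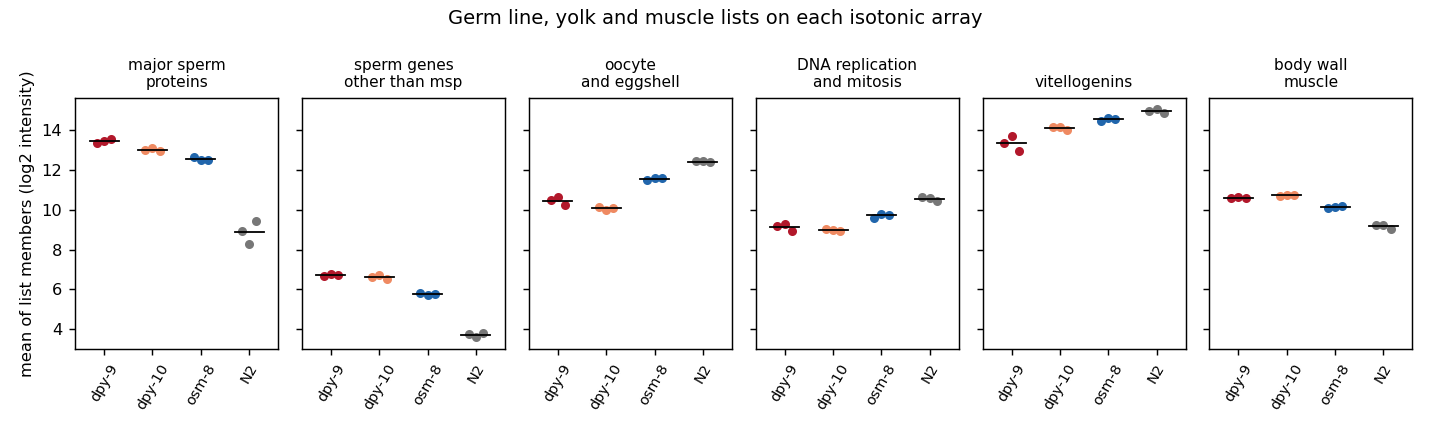
Mean log2 intensity over the members of 6 lists on each array of dpy-9, dpy-10, osm-8 and N2 (points, 3 each, with group means as bars). The msp and other sperm lists and body wall muscle stand highest in the dpy mutants, and the oocyte, replication and vitellogenin lists lowest, with osm-8 between the dpy mutants and N2 in all 6.

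Body wall muscle genes stood slightly above osm-8, at a median of 0.46 (0.20 with arrays centred). Of the 28, 1 was called (3.57%, near the 3.96% of all genes). The called gene was tni-1, a troponin I, at 10.43, 10.11 and 10.55 in dpy-9, 10.40, 10.33 and 10.70 in dpy-10, against 8.53, 8.56 and 8.73 in osm-8, 3.51-fold higher, which missed 3-fold under median centring (1.56). The myosin gene myo-3 was at 8.85, 9.04 and 8.67 in dpy-9, 8.86, 8.99 and 8.83 in dpy-10, against 7.54, 7.12 and 7.59 in osm-8 (1.46, under 3-fold). None of 25 neuronal genes was called, at a median of 0.00, and egl-3, a neuropeptide convertase, differed by 0.58. Of 48 neuropeptide genes flp-11, flp-1 and ins-4 rose (6.25%, against 3.96% of all genes), all near background in osm-8 and 2 of them in the dpy mutants too. The calls were lost without dpy-10 replicate 2 (1.59) for flp-11, without dpy-9 replicate 2 (1.39) for flp-1 and without dpy-10 replicate 1 (1.58), dpy-9 replicate 1 (1.60) or 2 (1.46) or osm-8 replicate 1 (1.73), 2 (1.73) or 3 (1.73) for ins-4, and all 3 under quantile normalization. Of 16 intestinal genes ges-1, the gut esterase, rose (6.25%, against 3.96% of all genes). Its arrays read 9.14, 9.14 and 8.90 in dpy-9, 9.44, 10.03 and 9.87 in dpy-10, against 6.98, 7.14 and 7.70 in osm-8, 4.43-fold above osm-8. None of 63 ribosomal protein genes was called (differences of -0.26 to 0.06), and rpl-39 differed by -0.26. Of 3 genes that the study used to scale its PCR, cpt-6 differed by 0.20 (95% interval -0.25 to 0.65), clh-3 by -0.14 (-0.67 to 0.40) and lam-3 by -0.22 (-1.15 to 0.72), and none was called.

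Several of the largest changes were in genes with no list. The largest rise of all, in ZK1025.3, was from near background, at 9.58, 9.07 and 9.80 in dpy-9, 9.14, 9.26 and 9.52 in dpy-10, against 3.17, 5.14 and 3.14 in osm-8, at least 47.8-fold (5.58 ± 0.34 SE, limma adjusted p = 2.54e-08). The replicate 2 array of osm-8 was the highest of its group there, and still below the lowest dpy array. In F44E7.4 osm-8 stood alone, at 10.24, 10.32 and 10.20 in dpy-9, 10.34, 10.22 and 10.20 in dpy-10, against 6.78, 7.18 and 7.39 in osm-8, with N2 at 10.74, 10.88 and 10.80 beside the dpy mutants. In H10E21.4 the levels stepped down from dpy-9 through dpy-10 and osm-8 to N2, at 11.57, 11.31 and 10.73 in dpy-9, 10.20, 10.35 and 9.85 in dpy-10, against 7.37, 7.21 and 7.37 in osm-8 and 3.22, 3.26 and 3.15 in N2, and 2 of its 3 probe sets were called. Further steps of this kind were seen in cpg-22 (dpy-10 minus dpy-9 -1.60, limma adjusted p = 1.83e-05), at 9.71, 9.34 and 9.18 in dpy-9, 7.95, 7.74 and 7.75 in dpy-10, against 5.61, 5.43 and 5.45 in osm-8, and in suro-1, a carboxypeptidase gene of cuticle formation, at 9.31, 9.29 and 9.38 in dpy-9, 8.52, 8.25 and 8.69 in dpy-10, against 5.85, 5.82 and 5.86 in osm-8. By contrast C17H12.8 was at 9.97, 9.74 and 10.07 in dpy-9, 9.45, 9.56 and 9.67 in dpy-10, against 6.56, 6.44 and 6.44 in osm-8, with osm-8 at the N2 level (6.34, 5.90 and 6.36).

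Among the falls with no list, hacd-1, a hydroxyacyl-CoA dehydrogenase gene, was at 6.29, 6.16 and 6.17 in dpy-9, 7.75, 7.87 and 7.89 in dpy-10, against 10.16, 9.95 and 10.06 in osm-8, and dpy-10 exceeded dpy-9 by 1.63 (limma adjusted p = 0.000528). In F09C8.1, as in ilys-3, osm-8 stood above both the dpy mutants and N2, at 5.18, 4.88 and 5.02 in dpy-9, 5.01, 5.03 and 5.45 in dpy-10, against 8.42, 8.59 and 8.66 in osm-8 and 5.50, 4.90 and 2.98 in N2. In most of the others N2 was level with osm-8 or above it. So F14D7.2 was at 6.29, 6.07 and 5.95 in dpy-9, 5.35, 5.38 and 5.36 in dpy-10, against 8.74, 8.60 and 8.77 in osm-8 and 10.23, 10.19 and 10.32 in N2, and C04B4.2 was at 5.65, 6.33 and 5.66 in dpy-9, 5.56, 4.16 and 5.61 in dpy-10, against 8.73, 8.65 and 8.80 in osm-8 and 9.55, 9.80 and 9.92 in N2. A pair of neighbours in sequence name, ZK813.1 and ZK813.2, fell by 2.77 and 3.08, and another, R04D3.2 and R04D3.3, fell by 3.09 and 2.73. The fall of W02D9.7 was 5.51-fold.

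The 2 dpy strains differed little from each other next to their distance from osm-8. With dpy-10 set against dpy-9, 25 probe sets were called higher and 48 lower (0.324% called), and 35 of the 1017 probe sets called between dpy mutants and osm-8 were among them. Of the 141 genes named by the rule and given here, 7 passed that test: ilys-2, ilys-3, cnc-7 and hacd-1 with dpy-10 above dpy-9, and cpg-22, pqn-54 and abu-11 with dpy-10 below.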

How the data were processed

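Whole-worm RNA was hybridised to 30 Affymetrix C. elegans GeneChips, 3 for each of 10 groups. GC-RMA normalization was done by the authors in Partek (versions are not given in the sources used here), and each deposited value is a linear intensity of 1 probe set on 1 array. The plan allowed for log2 values, so log2 was taken before every test. GC-RMA forces arrays towards 1 distribution and compresses dim probe sets, so changes from or to a level under 5 are bounds, and no count depth exists. The number of arrays (3 per strain) limits the precision.

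Of 22625 probe sets 77 controls were left out. Of the 22548 others, 20766 stand for 1 gene in GEO's platform annotation, 887 for several and 895 for no named gene, which gave 17118 genes. All were fitted with limma 3.58.1 in R 4.3.3 on the 18 isotonic arrays (6 groups, 12 residual degrees of freedom, intensity trend in the prior variance), with contrasts between group means and Benjamini-Hochberg adjustment over all probe sets. Thresholds follow the methods of the study (1% and 3-fold), whose present calls were not used here. The script was tested on simulated data. Intervals are 95% intervals of the moderated contrast and SE is its standard error.

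In lists each gene has 1 probe set, namely that of highest mean level on the 18 arrays, while the largest rises and falls are shown by the probe set that changed most. The members and lists were chosen with earlier results of these data known. Genes are named by rule: the 15 largest rises and 15 largest falls called in both strains without overlap of arrays and with a level of at least 8 on the brighter side, up to 6 members per list with the largest differences (all where a list has at most 12), the mutated genes and genes the study's text names. Of the list genes outside that rule, sqt-2, rol-6, phat-2 and the cyp genes of small counts were added after their values were seen. Sequences were not printed, as none were at hand. Alternatives were a filter on low values (log2 of at least 5 on 3 of 30 arrays), the 9 arrays alone, no intensity trend, median centring, quantile normalization, 32 added to each intensity, no probe sets that may match several transcripts, 1 probe set per gene, the replicate number as a block, looser thresholds (adjusted p of at most 0.05 and 2-fold), calls in both strains, and each of the 9 arrays left out in turn.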

Additional observations from a re-analysis of the deposited data

Results flagged for a closer look

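On 8 of the 141 named genes 1 of the 6 dpy arrays stood far from the others by Dixon's test. Chance gives about 1 in 20, so 8 of 141 is near the chance rate. The 6 arrays also mix 2 strains, which the test does not take into account. Replicate 3 of dpy-9 was the highest for nlp-31 (11.31), nlp-33 (11.04) and egl-3 (8.84) and the lowest for clec-60 (2.31). Replicate 2 of dpy-10 was the highest for rol-8 (11.96) and the lowest for C04B4.2 (4.16) and ugt-50 (7.40). Replicate 2 of dpy-9 was the highest for flp-1 (5.83).

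The dpy strains differed in their distance to osm-8, by limma's contrast of dpy-10 against dpy-9, in 7 named genes. The difference, dpy-10 minus dpy-9, was 4.69 for ilys-2, 2.75 for ilys-3, 1.80 for cnc-7 and 1.63 for hacd-1, and -1.60 for cpg-22, -1.74 for pqn-54 and -1.96 for abu-11.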

How the results depend on the processing

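Adding 32 to each intensity gave 241 higher and 77 lower (dpy-9 against osm-8 285 and 78, dpy-10 against osm-8 244 and 94), by construction fewer since dim changes shrink. Median centring gave 328 lower (326 for dpy-9, and 575 higher with 427 lower for dpy-10), by construction, since it shifts all differences by a common amount (-0.26 for both strains together). Leaving out probe sets that may match several transcripts gave 536 and 112 of 15837 tested, and the looser thresholds gave 1777 and 691. With each array left out, 778 to 844 were higher and 193 to 223 lower (dpy-9: 785 to 868 and 182 to 233, dpy-10: 791 to 946 and 224 to 269). The other alternatives kept the counts within 1.5 times. Deviations of same-numbered arrays of different strains gave r of -0.27 to 0.22 in 9 pairs. Pairs of different number gave r of -0.36 to 0.37 in 18 pairs, a range that holds the first. No pairing by number was therefore seen, though few arrays per strain make these r values imprecise and dependent on each other. Whether arrays of different strains were handled together, under the same or other numbers, was not tested. The replicate block gave 810 higher and 205 lower.

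Of 94 named genes called, 79 passed with each array left out and 60 under every alternative run on genes, or 75 if the added intensity is set aside. Small differences changed sign: osm-11 (-0.22 with median centring, -0.042 with quantile normalization, -0.007 without dpy-10 replicate 2 and -0.002 without osm-8 replicate 3, and up to 0.071 over the arrays left out), cpt-6 (-0.054 and -0.064 with median centring and quantile normalization), cnc-7 (-0.03) and hsp-4 (-0.14) with median centring, dpy-8 (0.003 without dpy-9 replicate 1, and -0.33 to 0.003 over the arrays left out) and clh-3 (-0.46 to 0.14 over the arrays left out, the highest without osm-8 replicate 1). Levels under 5 limit the size of any change.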
